A study of Mus musculus with 12 samples.

Results

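The macrophage and monocyte genes described here are 34 listed genes of 18193 genes that had a named probe set on the array. They were chosen by name, for what they are known to do in macrophages and monocytes, and with earlier results of these data known. Each gene is represented by 1 probe set, the one with the highest mean log2 intensity over the 12 arrays. All 34 genes had such a probe set, and 32 passed the filter on low values and were tested.

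The study profiled T lymphomas that arise in mice carrying ZMYM2-FGFR1, a fusion of a zinc finger protein with the kinase domain of a fibroblast growth factor receptor, on Affymetrix Mouse430 2.0 arrays. One side of the design set the tumours beside CD4+CD8+ double-positive (DP) thymocytes, the normal cells of the same surface phenotype, and the other set leukaemic stem cells (LSC) beside haematopoietic stem cells (HSC). The DP thymocytes were 3 independent sorts of Thy1+ CD4+CD8+ cells, each from the pooled thymuses of 3 normal BALB/c mice. Of the lymphomas, all taken from mice of the third serial transplant, 3 were hybridised unsorted, with over 90% of cells GFP+ Thy1+ DP+, and 1 further biological replicate after a sort for such cells, so that the sort and the tumour cannot be told apart in that array. The rest of an unsorted tumour can include cells of the transplanted host. ZNF112, an unsorted cell line that the labels do not describe further, gave 1 array. The 2 HSC arrays came from Lin- Sca-1+ c-kit+ marrow cells, each from 5 normal female BALB/c mice, and the 2 LSC arrays from GFP+ cells of the same phenotype, from marrow or spleen of 2 to 3 leukaemic mice each. The lymphoma, LSC and cell line labels used here give neither strain nor age, and the replicates are called biological.

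Macrophages and monocytes are phagocytes that depend on the colony-stimulating factor 1 receptor and on the transcription factor PU.1. They take up particles and dying cells through Fc, complement, scavenger and lectin receptors and degrade them in lysosomes rich in cathepsins and lysozyme. Macrophages are part of the normal thymus, where they clear the thymocytes that die during selection, and of most solid tumours. Several of the genes are not exclusive to them: cathepsins B and D are made by most cells, cathepsin S by B cells and dendritic cells, Tyrobp and Fcer1g by natural killer cells, mast cells and granulocytes, Apoe in many tissues, and Spi1 (PU.1) by early blood progenitors.

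Promoter sequences are shown for 4 genes whose values mark the ends of the range described below. C1qb and C1qc, which encode chains of 1 protein complex and lie on the same chromosome strand, had the largest differences between the sorted and the unsorted tumours. Ctss read above every DP array in the sorted tumour and in the cell line, and Ctsd differed little between DP thymocytes and the tumours other than lymphoma 1. The sequences are RefSeq's, build GRCm38.p6, read 5′ to 3′ on the gene's own strand from 250 bases before the transcription start to 10 bases from it. Of the 34 genes, 24 matched the promoter table. Capitals in C1qc and Ctss mark the reverse complement of GAGGAAG, a form of the PU.1 site, which C1qb holds on neither strand. In Ctsd they mark CACGTG, the core of the box bound by the lysosomal regulator TFEB. C1qb spans chr4:136886191-136886450 and C1qc chr4:136892905-136893164, both on the minus strand. Ctss spans chr3:95526536-95526795 on the plus strand and Ctsd chr7:142387818-142388077 on the minus strand.
C1qb: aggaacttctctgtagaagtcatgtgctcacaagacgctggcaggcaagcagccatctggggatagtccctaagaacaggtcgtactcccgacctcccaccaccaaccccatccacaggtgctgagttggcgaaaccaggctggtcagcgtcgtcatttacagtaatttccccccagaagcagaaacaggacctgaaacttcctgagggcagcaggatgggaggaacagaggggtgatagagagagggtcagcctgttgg
C1qc: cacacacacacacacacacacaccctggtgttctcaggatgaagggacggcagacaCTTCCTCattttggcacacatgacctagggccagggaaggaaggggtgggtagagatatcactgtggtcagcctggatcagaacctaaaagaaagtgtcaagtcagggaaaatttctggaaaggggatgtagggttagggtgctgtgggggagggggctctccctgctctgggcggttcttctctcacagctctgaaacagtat
Ctss: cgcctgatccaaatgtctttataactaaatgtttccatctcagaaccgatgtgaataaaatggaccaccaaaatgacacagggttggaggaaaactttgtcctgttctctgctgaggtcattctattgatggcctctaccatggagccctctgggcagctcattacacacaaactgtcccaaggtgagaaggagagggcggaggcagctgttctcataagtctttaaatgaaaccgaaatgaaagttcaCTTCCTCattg
Ctsd: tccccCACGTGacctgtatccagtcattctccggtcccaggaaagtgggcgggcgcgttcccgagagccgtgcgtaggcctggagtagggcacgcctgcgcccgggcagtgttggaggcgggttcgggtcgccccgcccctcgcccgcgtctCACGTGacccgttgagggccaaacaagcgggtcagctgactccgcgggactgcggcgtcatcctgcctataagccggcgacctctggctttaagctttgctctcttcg

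Some genes have several promoters in the table, and a gene was counted when any of them held the motif. GAGGAAG, on either strand, was present for 8 of the 24 genes (Itgam, Mrc1, C1qc, Marco, Fcgr3, Fcgr1, Ctss and Axl), for 12.5% of the 27025 genes in the table and in 11.1% of its 32851 promoters of the same length. CACGTG, which reads the same on both strands, was present for 2 of the 24 genes (Ctsd and, in 1 of its promoters, Lgmn), for 7.22% of all genes in the table and in 6.34% of all promoters. Matches of the 2 motifs can share at most 1 letter, at their ends. A match describes the letters only and is not evidence of binding.

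The intensities are given as log2 values in arbitrary units, and each difference is a log2 difference, so that 1 unit is a doubling. A probe set's level cannot be set against another probe set's. The 8 arrays of the T cell side had median intensities between 99.5 and 109 and the 4 arrays of the stem cell side between 44.3 and 46.1, so contrasts were made within a side. Tests were limma's over 12786 genes, with a Benjamini-Hochberg adjusted p under 0.05 as a call and errors given as SE. The level of 6.33 used in the filter, the median of all log2 values, serves below as a mark for low signal. The ratio of the 3′ to the 5′ beta-actin control probe sets, which rises as RNA is shorter or more amplified, lay between 2.18 and 2.23 in DP thymocytes, between 2.44 and 3.69 in the unsorted lymphomas, 3.39 in the sorted lymphoma, 2.60 in ZNF112, 3.91 and 5.79 in HSC and 9.82 and 13.6 in LSC.

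**Figure D1:**
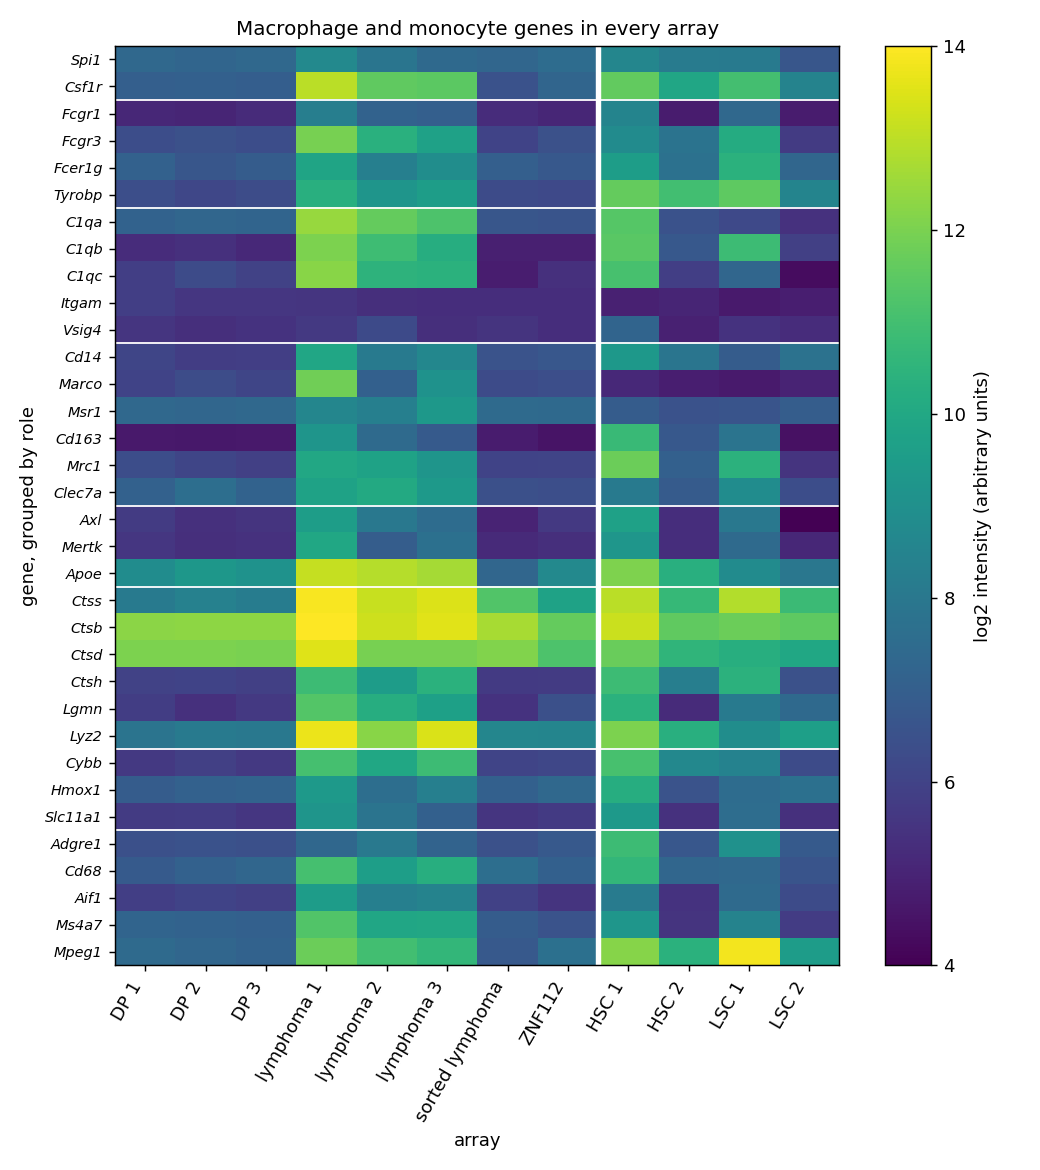
Log2 intensity (colour) of the 34 genes (rows, grouped by role) in the 12 arrays (columns; the white line parts the T cell side from the stem cell side). The 3 unsorted lymphomas, HSC 1 and LSC 1 stand out over most rows, while Itgam stays at or below 5.84 in every array.

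In the unsorted lymphomas the macrophage and monocyte genes were broadly higher than in DP thymocytes. The summed intensity of the 34 genes lay between 12615 and 13007 in the 3 DP arrays and 126491, 58323 and 67370 in lymphomas 1, 2 and 3. Of the 32 genes tested, 18 rose and 0 fell; 6.84% of all genes tested were called higher. The median difference was 3.21 over the 32 genes and -0.03 over all genes tested. With no filter, all 34 genes were tested, 14 were called higher, where 4.45% of all named genes were, and the median was 3.18. Of the 32 genes tested, 13 were at or under the filter level in every DP array and passed through other arrays. In 31 of the 34 genes every lymphoma array was above every DP array, against 19.6% of all named genes. The other 3 were Itgam, whose lymphoma arrays were all slightly lower, Ctsd and Vsig4, whose groups overlapped. In bulk tumour RNA, more cells of a type and more RNA of these genes per cell cannot be told apart.

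Lyz2, lysozyme M, a bacteriolytic enzyme of macrophages and neutrophils, read 7.86, 8.12 and 8.0 in DP thymocytes, 13.71, 12.24 and 13.44 in unsorted lymphomas 1, 2 and 3, 8.58 in the sorted lymphoma and 8.57 in ZNF112. The unsorted tumours were far above the other 5 arrays, which lay close together. The difference between unsorted lymphoma and DP thymocytes was 5.13 ± 0.51 (limma adjusted p = 0.000699), the smallest adjusted p of the 32 genes. Csf1r, the receptor for the growth factors CSF1 and IL-34, read 7.02, 7.07 and 7.0 in DP thymocytes, 12.95, 11.55 and 11.47 in the unsorted lymphomas, 6.54 in the sorted lymphoma and 7.25 in ZNF112. It rose by 4.96 ± 0.71 (adjusted p = 0.0035), again with every unsorted tumour above every other array of the side. Spi1, which encodes PU.1, differed less, with 7.27 to 7.40 in DP thymocytes and 8.71, 7.89 and 7.40 in the unsorted lymphomas, a difference of 0.66 ± 0.42 that did not pass the test (adjusted p = 0.363).

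The chains of C1q, the recognition protein that starts the classical complement pathway, had differences among the largest of the list. C1qa read 7.13, 7.30 and 7.22 in DP thymocytes, 12.46, 11.62 and 11.21 in the unsorted lymphomas, 6.68 in the sorted lymphoma and 6.61 in ZNF112. C1qb read 5.27, 5.38 and 5.16 in DP thymocytes, 12.02, 10.90 and 10.23 in the unsorted lymphomas, 4.88 in the sorted lymphoma and 4.87 in ZNF112. C1qc read 5.85, 6.30 and 5.97 in DP thymocytes, 12.21, 10.46 and 10.39 in the unsorted lymphomas, 4.80 in the sorted lymphoma and 5.38 in ZNF112. For all 3 chains lymphoma 1 was highest and the sorted tumour and the cell line were below every DP array. The rises over DP thymocytes were 4.55 ± 1.02 for C1qa (adjusted p = 0.0244), 5.78 ± 1.42 for C1qb (adjusted p = 0.0338) and 4.98 ± 1.28 for C1qc (adjusted p = 0.0395). The receptors of this group gave little signal: Itgam, the alpha chain of complement receptor 3 and a defining myeloid marker, read 5.31 to 5.54 in the unsorted lymphomas, and Vsig4, a complement receptor of resident macrophages, read 5.36 to 6.25 there. Both stayed under the filter level in all 8 arrays of the side and were not tested.

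Among the Fc receptors and the signalling adaptors they use, 2 of 4 rose. Fcgr3, a low-affinity IgG receptor, read 6.38, 6.48 and 6.36 in DP thymocytes, 11.95, 10.35 and 9.73 in the unsorted lymphomas, 6.0 in the sorted lymphoma and 6.47 in ZNF112. Its difference was 4.27 ± 1.03 (adjusted p = 0.031), and lymphoma 1 stood well above the other tumours. Tyrobp, the adaptor DAP12, read 6.38, 6.13 and 6.31 in DP thymocytes, 10.31, 9.23 and 9.56 in the unsorted lymphomas, 6.30 in the sorted lymphoma and 6.20 in ZNF112. It rose by 3.43 ± 0.67 (adjusted p = 0.0143), and the sorted tumour and the cell line lay within the DP range. Fcer1g, the common gamma chain of Fc receptors, and Fcgr1, the high-affinity IgG receptor, were also above DP thymocytes in all 3 tumours, by 2.12 ± 0.80 and 2.36 ± 0.97, without passing the test (adjusted p = 0.128 and 0.158).

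Of the pattern and scavenger receptors, 3 of 6 rose. Cd14, the lipopolysaccharide co-receptor, read 6.08, 5.81 and 5.86 in DP thymocytes, 9.93, 8.09 and 8.63 in the unsorted lymphomas, 6.55 in the sorted lymphoma and 6.70 in ZNF112, and rose by 2.97 ± 0.52 (adjusted p = 0.00908). Clec7a, the beta-glucan receptor dectin-1, read 7.09, 7.62 and 7.16 in DP thymocytes, 9.76, 10.07 and 9.42 in the unsorted lymphomas, 6.45 in the sorted lymphoma and 6.40 in ZNF112, and rose by 2.46 ± 0.60 (adjusted p = 0.0332). Lymphoma 2 was the highest array for Clec7a, unlike for Cd14, where lymphoma 1 led and the sorted tumour and cell line were slightly above DP thymocytes. Msr1, scavenger receptor A, read 7.40, 7.30 and 7.39 in DP thymocytes, 8.59, 8.32 and 9.34 in the unsorted lymphomas, 7.46 in the sorted lymphoma and 7.41 in ZNF112, and rose by 1.39 ± 0.27 (adjusted p = 0.0142). Here lymphoma 3 was highest. Marco, a scavenger receptor of selected tissue macrophages, read 11.85 in lymphoma 1, 7.06 in lymphoma 2 and 9.08 in lymphoma 3 against 6.0 to 6.31 in DP thymocytes. Its span of 4.79 between lymphomas 1 and 2 was the widest of the 34 genes, and its difference of 3.20 ± 0.98 did not pass the test (adjusted p = 0.0719). Mrc1, the mannose receptor, differed by 3.54 ± 1.38 (adjusted p = 0.139) and Cd163, the haemoglobin scavenger receptor, by 3.17 ± 1.17 (adjusted p = 0.123), with all tumours above all DP arrays.

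Of the genes for lysozyme and the lysosomal proteases, 4 of 6 rose, Lyz2 among them. Ctss, a cysteine protease that trims the MHC class II invariant chain, read 8.09, 8.38 and 8.19 in DP thymocytes, 13.90, 13.14 and 13.48 in the unsorted lymphomas, 11.27 in the sorted lymphoma and 9.77 in ZNF112. It rose by 5.29 ± 0.65 (adjusted p = 0.00186), and its sorted and cell line values both lay between the DP and the tumour arrays with a clear gap to each. On the chosen probe sets no other protease had both values there. Ctsb had only its sorted value between them and Lgmn only its cell line value. Ctsh, an aminopeptidase, read 5.97, 6.01 and 5.88 in DP thymocytes, 10.86, 9.53 and 10.40 in the unsorted lymphomas, 5.68 in the sorted lymphoma and 5.75 in ZNF112, and rose by 4.31 ± 0.99 (adjusted p = 0.0262). Lgmn, the asparaginyl endopeptidase legumain, read 5.80, 5.40 and 5.66 in DP thymocytes, 11.33, 10.23 and 9.68 in the unsorted lymphomas, 5.45 in the sorted lymphoma and 6.45 in ZNF112, and rose by 4.80 ± 1.10 (adjusted p = 0.0262). In the sorted tumour and in ZNF112 both were within 1 unit of the DP mean. Ctsb, by contrast, had a high signal on its probe set everywhere, with 12.27, 12.30 and 12.30 in DP thymocytes, 14.40, 13.24 and 13.55 in the unsorted lymphomas, 12.71 in the sorted lymphoma and 11.63 in ZNF112. Its difference of 1.44 ± 0.44 did not pass the test (adjusted p = 0.0699). With each probe set tested singly, another probe set of Ctsb was called higher (1.88 ± 0.51, limma adjusted p = 0.0485). Its remaining probe sets, at 2.47, 1.61 and 0.13, were not called. Ctsd, an aspartic protease, read 12.01 to 12.02 in DP thymocytes, 13.52 in lymphoma 1 and 11.97 in lymphomas 2 and 3, so that only lymphoma 1 stood above the normal cells (0.47 ± 0.45, adjusted p = 0.57).

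Apoe was the 1 of 3 genes for lipid transport and apoptotic cell clearance that rose. Apoe, a lipoprotein component, read 8.85, 9.31 and 9.08 in DP thymocytes, 13.12, 12.90 and 12.65 in the unsorted lymphomas, 7.29 in the sorted lymphoma and 8.72 in ZNF112. The unsorted tumours lay close together (SD 0.24, n = 3), closer than for any other gene that rose, and the rise was 3.81 ± 0.43 (adjusted p = 0.00134). Axl and Mertk, receptor kinases that bind dying cells through bridging proteins, were higher in all 3 tumours by 2.82 ± 1.31 and 2.76 ± 1.12 without passing the test (adjusted p = 0.207 and 0.153). For Mertk, lymphoma 1 read 9.96 and lymphoma 2 read 6.96.

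Cybb, the catalytic chain of the phagocyte NADPH oxidase, read 5.65, 5.90 and 5.66 in DP thymocytes, 11.06, 9.95 and 10.84 in the unsorted lymphomas, 6.05 in the sorted lymphoma and 6.15 in ZNF112, and rose by 4.88 ± 0.70 (adjusted p = 0.0036). Hmox1, which breaks down haem, and Slc11a1, a phagosomal metal transporter, differed by 1.40 ± 0.83 and 2.35 ± 1.01 and were not called (adjusted p = 0.329 and 0.177). Of the 5 other markers, 3 rose. Cd68, a late endosomal glycoprotein, read 6.84, 7.11 and 7.30 in DP thymocytes, 11.04, 9.60 and 10.28 in the unsorted lymphomas, 7.60 in the sorted lymphoma and 7.08 in ZNF112, and rose by 3.23 ± 0.76 (adjusted p = 0.0285). Aif1, the actin-binding protein Iba1, read 5.87, 6.02 and 5.89 in DP thymocytes, 9.53, 8.30 and 8.48 in the unsorted lymphomas, 5.93 in the sorted lymphoma and 5.51 in ZNF112, and rose by 2.84 ± 0.66 (adjusted p = 0.0269). Mpeg1, the pore-forming protein perforin-2, read 7.45, 7.32 and 7.13 in DP thymocytes, 11.77, 10.99 and 10.63 in the unsorted lymphomas, 6.79 in the sorted lymphoma and 7.70 in ZNF112, and rose by 3.83 ± 0.97 (adjusted p = 0.0378). These 3 shared the pattern of the list: lymphoma 1 on top and the sorted tumour and cell line near DP thymocytes. Ms4a7 differed by 3.27 ± 0.98 (adjusted p = 0.0677). Adgre1, the F4/80 antigen and a classical mouse macrophage marker, reached only 7.34, 8.04 and 7.18 in the tumours against 6.43 to 6.51 in DP thymocytes (1.06 ± 0.97, adjusted p = 0.545).

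Of the 18 genes that rose, Cd14, C1qb, C1qc, Aif1, Ctsh, Lgmn and Cybb were at or under the filter level in every DP array, so their differences rest on low normal values. Of the 18, 5 had further probe sets, and in each of the 5 another probe set was also called higher. The count of calls depended on the arrays in the fit: 6 genes were called without any 1 of the DP arrays, 7 without lymphoma 1, 12 without lymphoma 2 and 8 without lymphoma 3. Lyz2, Csf1r, Cd14, Ctss, Apoe and Cybb were called in all 6 of these fits, and C1qa, C1qb, C1qc, Clec7a, Fcgr3, Lgmn and Mpeg1 in none. With the sorted tumour counted in 1 group with the unsorted ones, Ctss alone was called.

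The 3 unsorted tumours did not carry the list to the same degree. Lymphoma 1 was the highest of the 3 for 30 of the 34 genes, lymphoma 2 for Adgre1, Clec7a and Vsig4, and lymphoma 3 for Msr1. Against the DP mean, 31 genes were 2-fold or more higher in lymphoma 1, 26 in lymphoma 2 and 29 in lymphoma 3. The same held for 11%, 6.98% and 9.49% of all named genes. Lymphoma 1 was 2-fold or more above lymphoma 2 for 23 genes and above lymphoma 3 for 19, against 6.43% and 7.02% of all named genes.

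Markers of other cell types moved with the same tumours. The summed intensity of 11 stroma and endothelium markers lay between 1112 and 1246 in DP thymocytes and was 36020, 18173 and 19804 in lymphomas 1, 2 and 3; 8 of the 11 rose and 0 fell. That of 15 T cell markers lay between 181499 and 199316 in DP thymocytes and between 82559 and 95431 in the unsorted lymphomas. It was 93244.5 in the ZNF112 line, within the range of these tumours. Of the 15, 4 were called lower and 1 higher in the unsorted lymphomas. Lymphoma 1, with the most macrophage signal, also had the most stromal signal and the lowest T cell sum. The median log2 of the T cell markers was instead lowest in lymphoma 3, at 12.51, 12.59 and 12.41 in lymphomas 1, 2 and 3. B cell markers summed to 5970 in lymphoma 3 and to 860 or less in the other arrays of the side. Granulocyte markers summed to 632 to 675 in DP thymocytes and 1147 to 3978 in the unsorted lymphomas, and 0 of the 10 tested were called. The part of these cell types in the result was not tested.

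**Figure D2:**
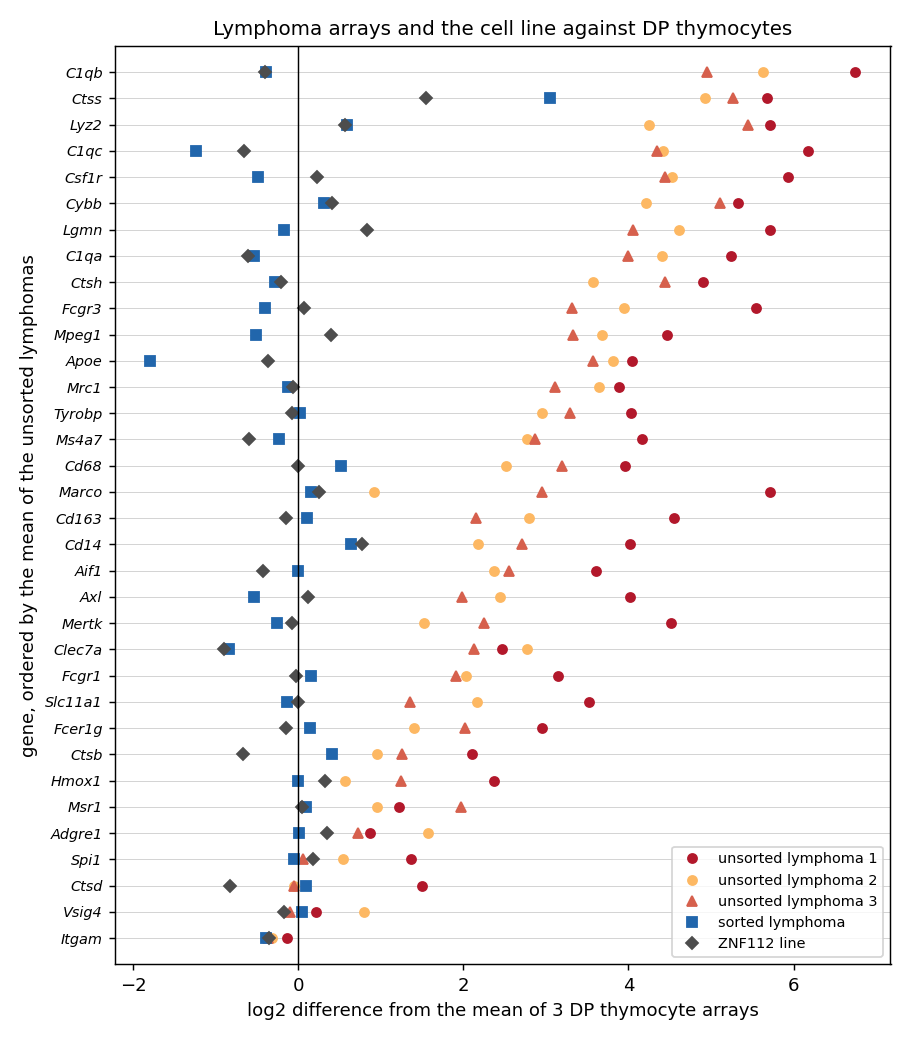
Log2 difference of each lymphoma array and of ZNF112 from the mean of the 3 DP thymocyte arrays (horizontal axis) for the 34 genes (vertical axis, ordered by the mean of the unsorted lymphomas). The unsorted lymphomas spread to the right, up to 6.75 for C1qb in lymphoma 1, while the sorted lymphoma and the cell line stay near 0 for most genes. Ctss is at 3.05 and 1.55 in these 2 arrays, and in the sorted lymphoma Apoe is at -1.79 and C1qc at -1.24.

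In the sorted lymphoma the list was close to its level in DP thymocytes. Its summed intensity was 16449, or 5329 without Ctsb and Ctsd, where DP thymocytes gave 3516 to 3811. Ctss alone gave 2470 of the 5329 in the sorted tumour and 272 to 333 in DP thymocytes. The median difference from the unsorted tumours was -3.18 over the 32 genes tested against 0.05 over all genes. Apoe and Lyz2 were called lower, with differences of -5.59 ± 0.61 (adjusted p = 0.00947) and -4.55 ± 0.72 (adjusted p = 0.0377), and the other 30 genes did not pass the test; 0.594% of all genes tested were called lower. The test takes the spread of the replicated groups for the single sorted array. Without lymphoma 1 or without lymphoma 3, Apoe alone was called. The sorted value was below all 3 unsorted tumours for 32 of the 34 genes, against 26% of all named genes, and 30 were 2-fold or more below the unsorted mean, against 6.7%. The exceptions to the first count were Ctsd, at 12.12, and Vsig4, at 5.51, both within the range of the unsorted tumours. Stroma and endothelium markers were at 1113 in the sorted tumour, within the DP range, and T cell markers at 121683, above all 3 unsorted tumours. Their part in the result was not tested.

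C1qc, C1qb, Apoe and Csf1r had the largest differences between the sorted and the unsorted tumours, -6.22 ± 1.81, -6.17 ± 2.01, -5.59 ± 0.61 and -5.45 ± 1.00. Of these only Apoe passed the test, and the adjusted p was 0.27 for C1qc, 0.323 for C1qb and 0.0708 for Csf1r. By role, the medians ran from -6.17 for the complement genes to -2.49 for the oxidase, haem and metal genes, and every tested gene was lower in the sorted tumour.

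Set against DP thymocytes, 0 of the 32 genes were called in the sorted lymphoma by limma, where 2.36% of all genes tested were called, and 2 had an unadjusted p under 0.05. This contrast and those of the unsorted tumours and of the cell line share the DP arrays. The median difference was -0.03, with 15 genes positive and 17 negative. Ctss was the 1 gene 2-fold or more above the DP mean (3.05 ± 0.92, adjusted p = 0.18), where 5.14% of all named genes were. Cd14 and Lyz2 followed, at 0.64 ± 0.74 and 0.59 ± 0.72, both within 1 SE. These values are those of the chosen probe sets. The Ctsb probe set that was called higher in the unsorted tumours lay 1.41 above the DP mean in the sorted tumour. It read 9.22 there, 7.73 to 7.88 in DP thymocytes and 9.27 to 10.45 in the unsorted tumours. The remaining probe sets of Ctsb lay 0.16 to 0.89 above the DP mean. The lowest were Apoe at -1.79 ± 0.61 (adjusted p = 0.269), C1qc at -1.24 ± 1.81 and Clec7a at -0.84 ± 0.85. The difference for Ctss passed the test with array weights by group (adjusted p = 0.0125) and in a fit to the T cell side alone (adjusted p = 0.0032), while the smallest adjusted p of any of the 32 genes was 0.367 to 0.408 in the fits that left out 1 DP array. Dendritic cells also make Ctss, and 9 dendritic cell markers summed to 4423 in the sorted tumour, 742 to 771 in DP thymocytes and 1410 to 2826 in the unsorted tumours. Ccr7, a homing receptor that T cells also carry, gave most of the sum in the sorted tumour. It read 11.89 there and 6.75 to 7.03 in DP thymocytes. The median log2 of the 9 markers was 6.47 in the sorted tumour, 6.19 to 6.36 in DP thymocytes and 6.84 to 7.61 in the unsorted tumours. Of the other 8 markers, Siglech (6.47) and Zbtb46 (6.74) read above every DP array in the sorted tumour. Their highest DP values were 6.36 and 6.71. Itgax (5.69) and Cd209a (5.32) read below every DP array, and 4 within the DP range. The part of dendritic cells in the Ctss value was not tested. Ncf4, a cytosolic subunit of the oxidase whose membrane chain is Cybb, read 6.09 to 6.48 in DP thymocytes, 9.12 to 9.54 in the unsorted tumours, 9.40 in the sorted tumour and 6.24 in ZNF112, so that the sorted tumour lay within the unsorted range and the cell line within the DP range. It was called in the sorted tumour against DP thymocytes (3.15 ± 0.30, adjusted p = 0.00179), whereas Cybb there was at 0.32 ± 1.00.

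**Figure D3:**
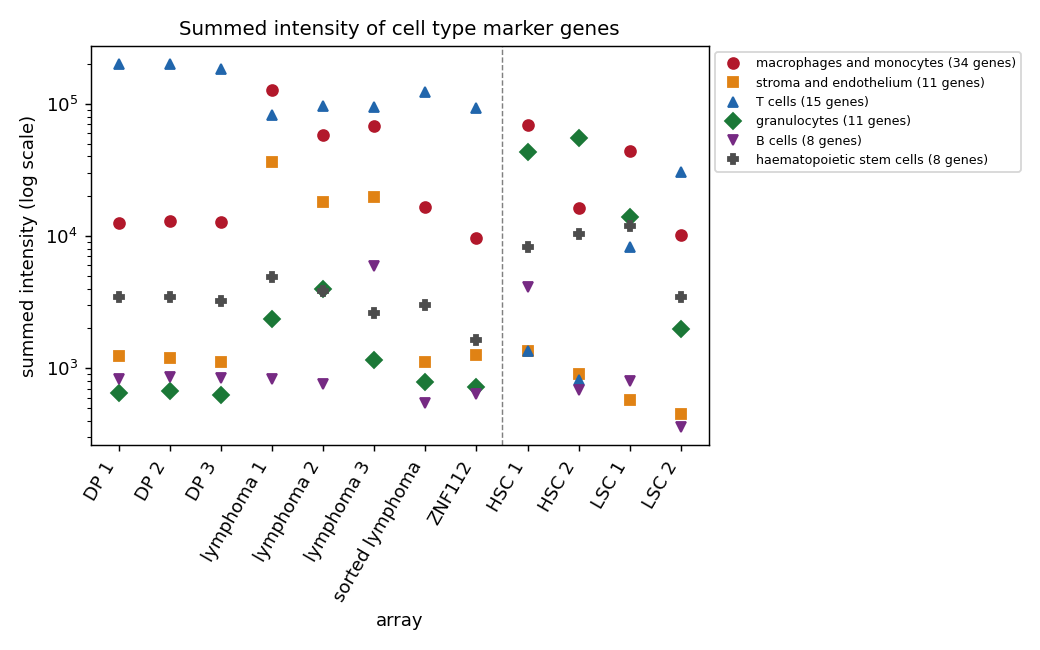
Summed intensity (vertical axis, log scale) of the marker genes of 6 cell types in each of the 12 arrays (horizontal axis; the dashed line parts the T cell side from the stem cell side, whose overall levels are not comparable). Macrophage markers run from 9725 in ZNF112 to 126491 in lymphoma 1 and are high in the same 3 tumours as the stromal markers. On the stem cell side they are higher in HSC 1 and LSC 1 than in HSC 2 and LSC 2.

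In the ZNF112 line the 34 genes summed to 9725, below the DP arrays. Ctsb and Ctsd, which most cells make, carried much of that sum: without them ZNF112 was at 4213, above the 3516 to 3811 of the DP arrays. Ctss alone gave 874 of the 4213 in ZNF112 and 272 to 333 in the DP arrays. The median log2 intensity of the 34 genes was 6.46 in ZNF112 and 6.33 to 6.40 in DP thymocytes. The median difference from the unsorted lymphomas was -3.33 over the 32 genes, against 0.05 over all genes tested. Lyz2 and Apoe were called lower, with differences of -4.56 ± 0.72 (adjusted p = 0.0188) and -4.17 ± 0.61 (adjusted p = 0.0139), where 1.5% of all genes tested were called lower. Both were also called when any 1 of the unsorted lymphomas was left out, and neither when the sorted tumour joined the lymphoma group. Against DP thymocytes limma called 0 of the 32 genes, 0 had an unadjusted p under 0.05, and 6.01% of all genes tested were called. Ctss was again the 1 gene 2-fold or more above the DP mean (1.55 ± 0.92, adjusted p = 0.442), where 7.94% of all named genes were. Ctsb and Ctsd were below every DP array, with differences of -0.66 ± 0.62 and -0.82 ± 0.64, neither called. Cd8a, at 8.51, and Cd4, at 6.88, were both far below their DP levels of 14.13 to 14.30 and 13.02 to 13.30 in this line, which the labels describe by no surface phenotype.

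Of 84 tested genes that work with the listed ones, in the 7 lists taken up next, 19 (22.6%) were called higher in the unsorted lymphomas and 1 lower, beside the 6.84% of all genes called higher. Of 13 tested transcription factors and cytokine receptors of myeloid cells, 2 rose in the unsorted lymphomas. Csf2rb, the shared beta chain of the GM-CSF, IL-3 and IL-5 receptors, read 5.40 to 5.62 in DP thymocytes, 12.37, 10.18 and 10.30 in the unsorted tumours and 5.54 in the sorted one (5.44 ± 0.97, adjusted p = 0.00953). Cebpb, a myeloid transcription factor, read 6.39 to 6.46 in DP thymocytes, 10.49, 8.54 and 8.17 in the unsorted tumours, 8.80 in the sorted one and 10.11 in ZNF112, so that all 5 arrays were above every DP array. Its difference from DP thymocytes was 2.65 ± 0.57 in the unsorted tumours (adjusted p = 0.021) and 3.69 ± 0.81 in ZNF112 (adjusted p = 0.0351). Csf1, the ligand of Csf1r, differed by 0.17 ± 0.24 (adjusted p = 0.72).

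Of the partners of Cybb in the oxidase, Ncf1 and Ncf4 were 2 of 4 that rose, by 2.66 ± 0.30 (adjusted p = 0.00125) and 3.02 ± 0.21 (adjusted p = 0.000127). Cyba, its membrane partner, was high in all arrays and differed by -0.09 ± 0.61. Of 12 further Fc receptors and DAP12 partners, Fcgrt, the neonatal Fc receptor, alone rose (3.23 ± 0.70, adjusted p = 0.0219), a share near that of all genes. Of 23 further lysosomal genes, 2 rose and 1 fell: Grn, progranulin, rose by 3.39 ± 0.75 (adjusted p = 0.0227), Ctsk, cathepsin K, by 2.25 ± 0.33 (adjusted p = 0.0039), and Ctsl, cathepsin L, fell by 1.5 on the log2 scale (adjusted p = 0.0427). This share, too, was near the 6.84% of all genes. The median difference over these 23 genes was 0.48, against 3.21 over the 32 listed genes tested.

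Of 13 genes for complement and clearance ligands, 5 rose. Serping1, the C1 inhibitor, and C1s1 and C1ra, the proteases that C1q activates, rose by 6.39, 5.70 ± 0.53 and 3.08 ± 0.59 (adjusted p = 0.00105, 0.000472 and 0.0122). Gas6, a ligand that bridges Axl and Mertk to dying cells, rose by 3.00 ± 0.65 (adjusted p = 0.0215), and Cd93 by 2.86 (adjusted p = 0.0356). The inhibitor and the proteases are also made by fibroblasts. In the sorted tumour C1s1 was at 5.17, as in DP thymocytes (5.04 to 5.09), and differed from the unsorted tumours by -5.60 ± 0.75 (adjusted p = 0.02). Of 13 chemokines and chemokine receptors of macrophages 5 rose, led by Ccl8 (5.00 ± 1.01, adjusted p = 0.0164) and Ccl12 (4.13 ± 0.40, adjusted p = 0.000591), both ligands that attract monocytes. The others were Ccl9 (3.25 ± 0.85, adjusted p = 0.0424), Ccr1 (2.79 ± 0.50, adjusted p = 0.00957) and Cxcl16 (1.84 ± 0.33, adjusted p = 0.00908). Ccr2, the receptor of inflammatory monocytes, differed by 0.07 ± 0.29 and Cx3cr1 by 0.62 ± 0.27, neither called (adjusted p = 0.925 and 0.18). Of 6 iron and haem genes 2 rose, haptoglobin (Hp) by 4.39 ± 0.46 (adjusted p = 0.000866) and the transferrin receptor Tfrc by 1.49 (adjusted p = 0.0105). In the sorted tumour Hp differed from the unsorted ones by -4.24 ± 0.65 (adjusted p = 0.0333). Tfrc was above DP thymocytes in the sorted tumour too, by 2.10 (adjusted p = 0.0327).

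On the stem cell side the largest differences lay within the groups. HSC 1 was above HSC 2 for 33 of the 34 genes, by 2-fold or more for 28, where 3.97% of all named genes were, and by a median of 2.35. The summed intensity was 69272 in HSC 1 and 16150 in HSC 2. LSC 1 was above LSC 2 for 28 of the 34 genes, by 2-fold or more for 21, where 14.3% of all named genes were, with sums of 43820 and 10234. Given in the order HSC 1, HSC 2, LSC 1 and LSC 2, C1qa read 11.35, 6.54, 6.23 and 5.41, C1qb 11.46, 6.74, 10.86 and 5.89, and C1qc 11.09, 5.86, 7.30 and 4.34. HSC 1 was high for all 3 chains and LSC 1 for C1qb alone. The C1qb value of LSC 1 depended on the probe set, as its other probe sets read 7.12 and 9.46 there. The gap of 5.23 in C1qc between the HSC arrays was the widest of the list.

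Csf1r read 11.61, 9.93, 11.01 and 8.45 in the same order of arrays and Spi1 8.57, 8.17, 8.10 and 6.69. Adgre1 read 10.84, 6.72, 9.07 and 6.82, and Mrc1 11.74, 7.06, 10.43 and 5.51. Both Adgre1 and Mrc1 were thus well higher in HSC 1 and LSC 1 than in HSC 2 and LSC 2. Mpeg1 read 12.19, 10.38, 13.81 and 9.53, with LSC 1 the highest of the 4 arrays. Tyrobp read 11.65, 10.99, 11.52 and 8.50, Ctss 12.98, 10.70, 12.85 and 10.80, and Ctsh 10.86, 8.28, 10.43 and 6.50. For these 4 genes HSC 1 and LSC 1 were above HSC 2 and LSC 2, so that the groups overlapped. Ctsb read 13.21, 11.54, 11.75 and 11.52, with HSC 1 apart from the other 3 arrays.

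The Fc and pattern receptors showed the same split in part. In the order HSC 1, HSC 2, LSC 1 and LSC 2, Fcgr3 read 8.81, 7.82, 10.15 and 5.73, Clec7a 8.10, 6.85, 8.85 and 6.35, and Cd14 9.32, 7.90, 6.91 and 7.76. LSC 1 was the highest array for Fcgr3 and Clec7a and the lowest for Cd14. Msr1, at 6.90, 6.53, 6.60 and 6.93, and Marco, at 4.73 to 5.14, hardly varied. Aif1 read 8.14, 5.47, 7.47 and 6.30, Lgmn 10.38, 5.25, 8.08 and 7.44, and Cd68 10.61, 7.30, 7.40 and 6.61. HSC 1 was highest for these 3 genes, and for Cd68 it stood alone. Vsig4, under the filter level in the other 11 arrays, reached 7.20 in HSC 1.

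**Figure D4:**
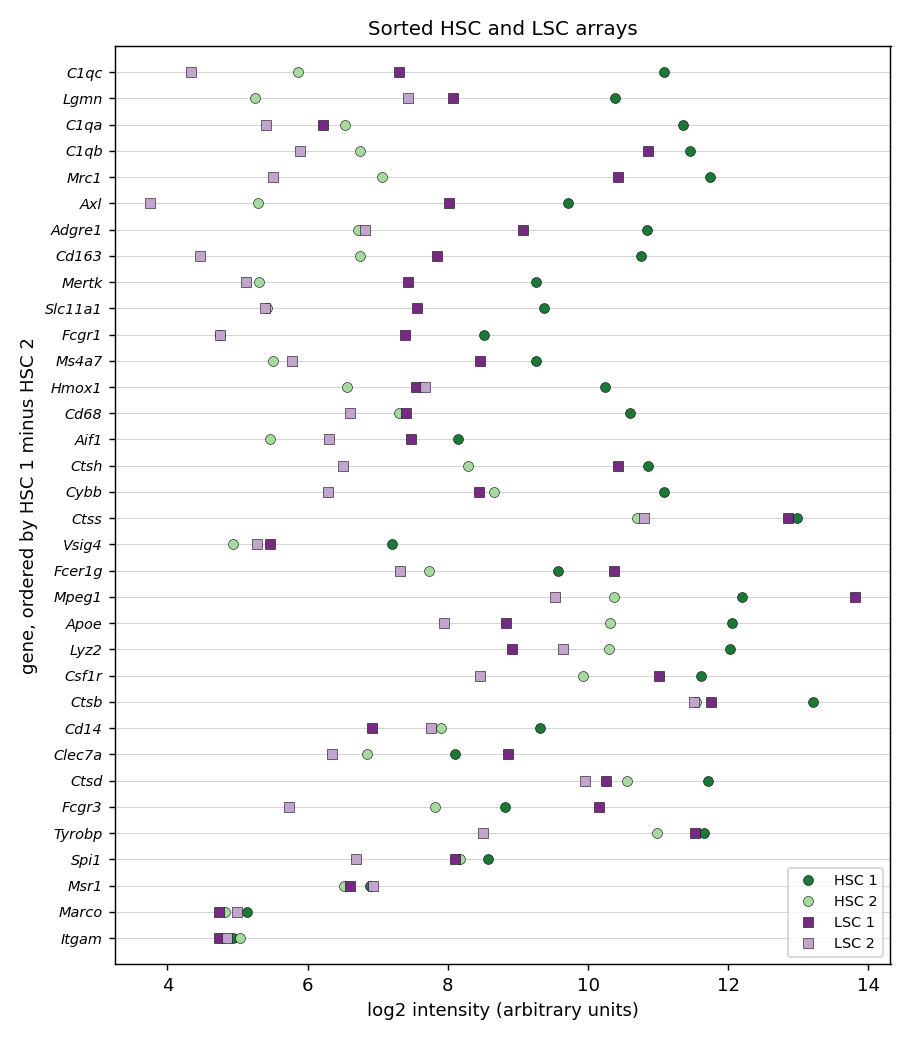
Log2 intensity (horizontal axis) of the 34 genes (vertical axis, ordered by HSC 1 minus HSC 2) in the 2 HSC and 2 LSC arrays. HSC 1 lies to the right of HSC 2 for 33 genes and LSC 1 to the right of LSC 2 for 28, so that the groups overlap for most genes.

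Between the groups, 1 gene was called. Apoe read 12.05 and 10.31 in HSC and 8.82 and 7.95 in LSC and fell by 2.80 ± 0.53 (adjusted p = 0.0138), where 6.73% of all genes tested were called lower. It was also called without any 1 of the 4 arrays, but not in a fit to these 4 arrays alone (adjusted p = 0.31) or with array weights by group (adjusted p = 0.178). Lyz2 read 12.03 and 10.31 in HSC and 8.92 and 9.64 in LSC, and Cybb 11.08 and 8.66 against 8.44 and 6.29. In both genes every LSC array was below every HSC array, with differences of -1.89 ± 0.62 and -2.51 ± 0.86 that did not pass the test (adjusted p = 0.0932 and 0.104). Of the 34 genes 8 had such a gap downward and 0 upward, against 18.4% and 24.5% of all named genes. The median difference was -0.95 over the 32 genes and -0.03 over all genes tested. It depended on the arrays in the fit: the median was 0.21 without HSC 1, 0.19 without LSC 2, -2.42 without HSC 2 and -1.92 without LSC 1. Between single arrays, the median over the 34 genes was -1.38 for LSC 1 minus HSC 1 and -0.56 for LSC 2 minus HSC 2. The number of genes called was 1 without HSC 1, 6 without HSC 2, 5 without LSC 1 and 2 without LSC 2.

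Markers of other lineages differed between the same arrays. B cell markers summed to 4099 in HSC 1 and 687 in HSC 2. Granulocyte markers summed to 42964 and 55088 in HSC and to 13867 and 1972 in LSC, and T cell markers to 1342 and 821 in HSC and to 8259 and 30478 in LSC, with 11 of 15 called higher. LSC 2, with the least macrophage signal, thus had the most T cell signal of the 4 arrays. Kit, the receptor used in the sort, read 10.99 in LSC 2, the lowest of the 4 arrays, and 12.31 in LSC 1, the highest. HSC 1 was almost level with LSC 2, and HSC 2 read 11.43, so Kit did not set LSC 2 apart from HSC 1. The beta-actin 3′ to 5′ ratio was higher in LSC than in HSC, as given above. The part of these cell types and of RNA quality in the result was not tested.

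Of the 84 genes of the 7 partner lists, 7 (8.33%) were called lower in LSC, a share near the 6.73% of all genes, and 1 higher. Csf3r, the G-CSF receptor, at 8.79 and 9.57 in HSC and 6.01 and 5.35 in LSC, fell by 3.50 ± 0.33 (adjusted p = 0.000974). Trem3, a DAP12 partner, fell by 3.37 ± 0.66 (adjusted p = 0.016), Cd93 fell by 3.75 (adjusted p = 0.0308) and the transcription factor Tfec fell by 2.60 (adjusted p = 0.043). Hp fell by 4.03 ± 0.56 (adjusted p = 0.00396), Blvrb, a biliverdin reductase, fell by 3.12 (adjusted p = 0.0163), and the chemokine Ccl3 fell by 2.97 (adjusted p = 0.00225). Of these 7 genes, Csf3r, Trem3, Tfec, Hp, Blvrb and Ccl3 were higher in HSC 2 than in HSC 1, and Cd93 read 11.07 in HSC 1 and 11.03 in HSC 2. The 7 are named because they were called, which a wide gap between the HSC arrays makes less likely. They therefore cannot show whether the partner genes share the split of the listed genes. Csf2rb read 10.05 and 8.56 in HSC and 12.28 and 8.43 in LSC and was not called (1.05 ± 1.19, adjusted p = 0.62). Npc2, a lysosomal sterol carrier, was called higher in LSC, by 0.92 (adjusted p = 0.0181).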

How the data were processed

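RNA from 12 mouse samples was hybridised to Affymetrix Mouse430 2.0 arrays after a 2-cycle amplification, per the labels' protocols. What the authors deposited is 1 linear intensity for each probe set and array. RMA is named in the submitters' processing notes, with no version, and the genome build is not given in the sources used here. Since the sides differ in median intensity, they look normalized apart, and levels set across them carry this offset. Log2 was taken of the intensities. Of 45101 probe sets, 64 were controls and 34945 were named by 1 symbol through the platform annotation, giving 18193 genes. A gene above log2 6.33 (an intensity of 80.4) in at least 2 arrays was tested, 12786 in all.

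Contrasts were tested, two-sided, by lmFit and eBayes of limma 3.58.1 under R 4.3.3, with a mean for each of 6 groups over the 12 arrays and Benjamini-Hochberg adjustment over all genes tested. All groups shared 1 estimate of the spread, although the root mean square SD was 0.153 in DP thymocytes, 0.506 in unsorted lymphoma, 0.554 in HSC and 1.01 in LSC. For a group of 1 array this spread is an assumption. Where nothing says that samples came from separate animals, p-values measure the spread between these samples. Precision is limited by how few arrays there are.

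The members, the other gene lists and the genes named were chosen with earlier results of these data known. Every member is accounted for. Values in every array are given for members called in any contrast, for the 3 highest and 3 lowest in sorted lymphoma against DP thymocytes, and for the members highest in ZNF112 and in each LSC array; genes of the other lists are named only where called in a contrast or where their value stands beside a member's, and not every called one is named. Ccr2, Cx3cr1, Kit and the dendritic cell markers were named after their values were seen. Alternatives covered the filter, scaling, choice of probe set, offset before log2, array weights, arrays in the fit, a replicate block and leaving out each array. The scripts were tested on simulated data.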

Additional observations from a re-analysis of the deposited data

Results flagged for a closer look

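For 10 of the 32 genes tested, the difference between unsorted lymphoma and DP thymocytes was itself different from the difference between LSC and HSC, by limma's test of the difference of the contrasts (adjusted p under 0.05, a call made for 12.6% of all genes tested). In all 10 the T cell side had the more positive difference. C1qa differed by 7.67 ± 1.61 (adjusted p = 0.0198), C1qc by 7.64 ± 2.03 (adjusted p = 0.0433), Cybb by 7.39 ± 1.11 (adjusted p = 0.00531) and Lyz2 by 7.02 ± 0.80 (adjusted p = 0.00194). Apoe differed by 6.61 ± 0.68 (adjusted p = 0.00124), Csf1r by 6.0 ± 1.12 (adjusted p = 0.0131), Ctss by 5.30 ± 1.02 (adjusted p = 0.0147) and Cd68 by 5.18 ± 1.20 (adjusted p = 0.0278). Tyrobp differed by 4.73 ± 1.07 (adjusted p = 0.0253) and Cd14 by 4.24 ± 0.83 (adjusted p = 0.0154). Ctss differed although its LSC and HSC means were nearly the same (-0.01 ± 0.79), while Apoe was called in both contrasts, in opposite directions. The comparison was added after seeing the data, and the stem cell side enters it with the split between its arrays: the count was 8 without HSC 1, 20 without HSC 2, 21 without LSC 1 and 9 without LSC 2.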

How the results depend on the processing

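The number of listed genes called is given for each alternative that moved it by over 1.5 times. With array weights by group it was 28 for unsorted lymphoma against DP thymocytes (18 in the report), 12 for the sorted against the unsorted tumours (2), 1 for the sorted tumour against DP thymocytes (0), 14 for ZNF112 against the unsorted tumours (2) and 0 for LSC against HSC (1). In a fit to the arrays of 1 side these counts were 28, 18, 2, 21 and 0, and 1 for ZNF112 against DP thymocytes (0). With the sorted tumour in 1 group with the unsorted ones, 1 gene was called against DP thymocytes and 0 in ZNF112. For the sorted against the unsorted tumours, the count was 1 with no filter, with the stricter filter of 4 arrays and with an offset of 50 before log2. Leaving out 1 array gave 6 to 12 genes for unsorted lymphoma against DP thymocytes, 1 to 2 for the sorted against the unsorted tumours, 1 to 6 for LSC against HSC and 8 to 21 for the difference of the contrasts. With HSC 2 and LSC 2 alone, added after seeing the data, 4 genes were called. Median centring, quantile normalization, other choices of probe set and a trended prior kept each count within 1.5 times. No direction of a called value turned.

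Over all genes tested, deviations of arrays with the same replicate number had correlations from -0.0195 to 0.0139 between DP thymocytes and unsorted lymphoma. Between HSC and LSC the correlation was 0.0983. With 2 arrays a group this is a single value, and it cannot decide whether the numbers pair these samples. For the listed genes, HSC 1 was above HSC 2 for 33 of 34 and LSC 1 above LSC 2 for 28. With the replicate number as a block, 24 genes were called for unsorted lymphoma against DP thymocytes, 3 for the sorted against the unsorted tumours, 6 for ZNF112 against the unsorted tumours and 3 for LSC against HSC.

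Single arrays of the sorted tumour and ZNF112 give no spread of their own, and low-signal probe sets such as those of Itgam and Vsig4 allow no statement about their genes.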
